A study of Mus musculus with 4 samples.

Results

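The Csmd1 region is the stretch of mouse chromosome 8 from 15800000 to 17650000 (mm9), 1.85 Mb that hold the gene Csmd1 with flanks. Its members are the listed H3K27ac HiChIP interactions with at least 1 anchor, the stretch of chromatin at either end of a contact, that overlaps the region by 1 bp or more. There were 74 of them among 15011 listed interactions, 65 of the 6733 in the list of VIP interneurons and 9 of the 8278 in the list of SST interneurons. The region was picked because earlier work on these lists showed more VIP than SST interactions there, so the difference between the lists is a description and carries no test.

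Nuclei came from the cortex of adult C57BL/6 mice with the genotype Sst-cre; Sun1 or Vip-cre; Sun1, in which Cre switches on a tagged nuclear envelope protein so that nuclei of one driver's cells can be captured. The Sst driver marks somatostatin interneurons and the Vip driver marks vasoactive intestinal peptide interneurons, and a capture rests on where the driver is or was active. All nuclei were crosslinked, cut with MboI and precipitated with an antibody to H3K27ac, without a further treatment group. The labels describe 2 samples per cell type, and 1 list per cell type was analysed here, so no value below has a replicate check, and the labelled cell types were not checked against marker genes.

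Csmd1 encodes a very large membrane protein of neurons built of CUB and sushi domains, the folds found in regulators of the complement system, and it has been described as a complement inhibitor at synapses. Its many exons are spread over long introns, so most of the locus is intron. H3K27ac marks active promoters and enhancers, and HiChIP against it lists pairs of stretches that lie close together in chromatin precipitated through the mark. An interaction is therefore a called contact between 2 stretches, and the lists do not show whether both carry the mark. A stretch with no listed contact does not appear at all.

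In the gene table at hand (GRCm38.p6), the nearest protein-coding genes on the lower-coordinate side are Myom2, Kbtbd11 and Arhgef10, and those on the higher side are Mcph1, Angpt2 and Agpat5. Within the span of Csmd1 the same table places 3 long non-coding RNA genes, 2 pseudogenes, the microRNA gene Mir3106 and the protein-coding model C030002A05Rik. That table is of another build than the lists, so it served for names and order, and no anchor was assigned to the promoter, an exon or an intron of Csmd1. Below, an anchor is named by its start in Mb on chromosome 8.

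VIP interneurons had a dense set of listed contacts across the Csmd1 region, and SST interneurons had a small set at its higher-coordinate end. The VIP list held 65 interactions (Poisson interval 50.2 to 82.8), 9.65 per 1000 of the list, and the SST list held 9 (4.12 to 17.1), or 1.09 per 1000. The ratio was 8.88, with a counting interval of 4.40 to 20.3 that leaves out how the region was picked and that interactions share anchors. It was 4.83, under 5-fold, among interactions of up to 200 kb (20 VIP and 5 SST), and 15.1 without the most connected anchor of each list (49 and 4). With anchors within 5 kb merged it was 7.86, from 45 VIP and 7 SST interactions. Over the rest of chromosome 8 the ratio was 0.992 (0.867 to 1.13), from 400 VIP and 496 SST interactions. Of 289 windows of the same length with 20 or more interactions, 13.1% were at least 5-fold higher per 1000 in VIP and 17.3% at least 5-fold higher in SST. Since the rule rests on this contrast, nothing is read from the region's place among them. On the VIP side, the windows just under the 5-fold limit had a ratio of 4.92. They held 24 VIP and 6 SST interactions on chromosome 11 and likewise on chromosome 15, and 20 and 5 on chromosome 5. The window just above the limit had 5.90 (48 and 10 on chromosome 2).

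**Figure D1:**
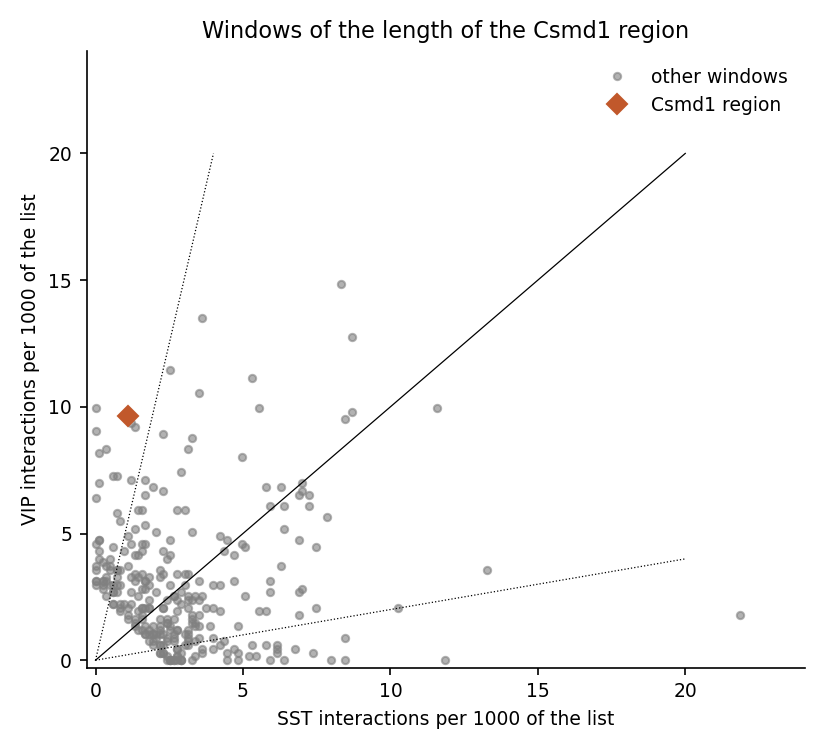
Each point is a window of 1.85 Mb with 20 or more interactions; the x axis gives SST and the y axis VIP interactions per 1000 of the list, the solid line marks equal values and the dotted lines a 5-fold difference. The Csmd1 region lies at 1.09 for SST and 9.65 for VIP, above the upper dotted line.

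The SST contacts occupied 599.7 kb, from 16940092 to 17539755, and the VIP contacts began about 1 Mb lower. The region held 22 VIP anchors, which ran from 15923938 to 17537692, and 7 SST anchors. Of the VIP anchors, 14 lay wholly below the lowest SST anchor, between 15923938 and 16909773, where the SST list had none. VIP anchors covered 22.8% of the region (423 kb) and SST anchors 6.76% (125 kb). In 19 bins of 100 kb, 12 held a VIP anchor and 4 held an SST anchor, and each of these 4 also held a VIP anchor with more interactions per 1000.

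**Figure D2:**
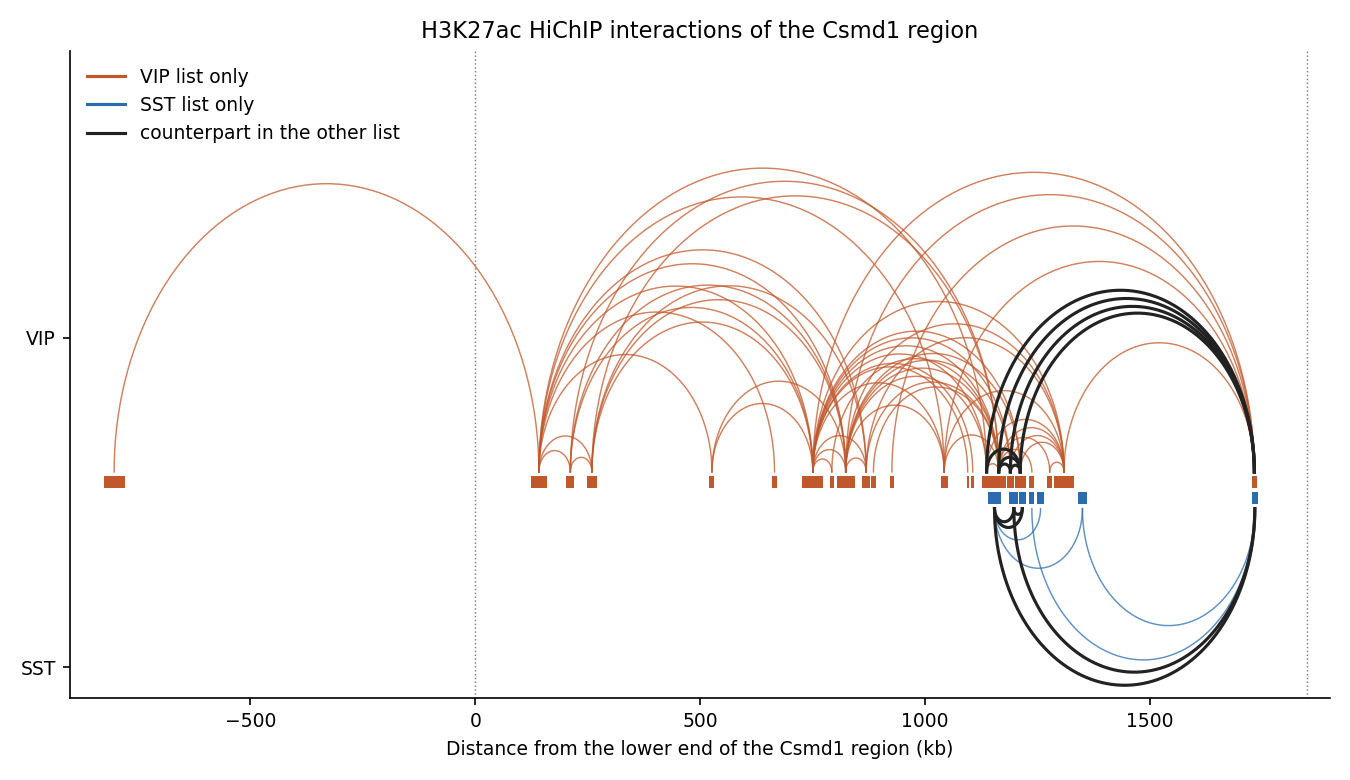
Arcs join the midpoints of the anchors of each interaction, VIP above and SST below; boxes are anchors, the x axis is the distance in kb from the lower end of the region, dotted lines mark the region's ends, and black arcs have a counterpart in the other list. The 9 SST arcs lie at the right, where 8 black VIP arcs face 5 black SST arcs, and the 1 VIP arc at the far left leaves the region.

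The 9 SST interactions joined 7 anchors. The anchor at 16.94 Mb (16940092 to 16969097) took part in 5 of them, with partners at 16.99, 17.01, 17.05, 17.14 and 17.53 Mb. The anchor at 17.53 Mb (17527073 to 17539755) took part in 4, with partners at 16.94, 16.99, 17.03 and 17.14 Mb. The remaining interaction joined 16.99 to 17.01 Mb over 18.8 kb, the shortest of the 9. The longest ran from 16.94 to 17.53 Mb, a distance of 579 kb. Thus each SST interaction but 1 ended at the 16.94 or the 17.53 Mb anchor, and 1 joined them to each other.

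The most connected VIP anchor lay at 16.53 Mb (16527098 to 16574063), with 16 interactions and no overlapping SST anchor. Its partners reached from 15.92 Mb on the lower side to 17.53 Mb on the higher side, and its longest contact was 982 kb. The anchor at 16.95 Mb (16947504 to 16980426) had 15 interactions, and the SST anchor that overlaps it, at 16.94 Mb, had 5. The anchor at 16.60 Mb (16603382 to 16644098) had 13 interactions, and those at 15.92 Mb (15923938 to 15959192) and 17.09 Mb (17086431 to 17131776) had 10 each; none of these 3 overlapped an SST anchor. Together these 5 anchors took part in 56 of the 65 VIP interactions (86.2%). They were also the 5 widest of the 22, at 32.9 to 47.0 kb, and the next widest measured 23.6 kb. Width goes with number in the whole VIP list too, where the median width was 34.8 kb for anchors with 10 or more interactions and 12.4 kb for all of them; the part of width in these counts was not tested.

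The other 17 VIP anchors had between 1 and 9 interactions. The anchor at 17.53 Mb had 9 although it was 10.6 kb wide, under the region's median of 14.9 kb. Anchors at 16.93 and 17.00 Mb had 7 each, and those at 16.05, 16.66, 16.84 and 16.98 Mb had 6 each. A further 6 anchors had 1 interaction. The median was 6 interactions per anchor, against 2 over the 4850 anchors of the VIP list, and 5 of 22 anchors had 10 or more (22.7%, exact interval 7.82 to 45.4%) against 4.27% of the list. In SST the median was 2 in the region and 2 over the list, and none of the 7 anchors had 10 or more. A region picked for many VIP interactions must hold well-connected VIP anchors, so these counts describe how the interactions were spread and support nothing else.

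**Figure D3:**
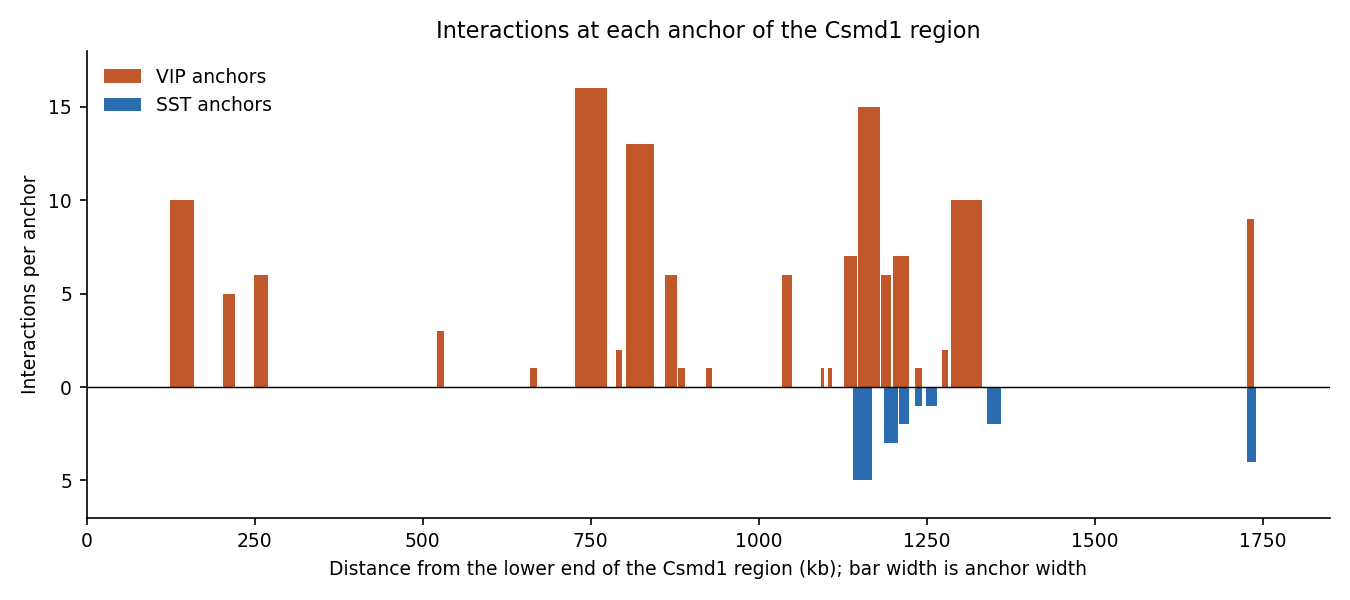
Bars show the interactions (y axis) of each VIP anchor, upward, and each SST anchor, downward, at its distance in kb from the lower end of the region (x axis); bar width is anchor width. The tallest VIP bars, at 16, 15 and 13 interactions, are also wide, while the bar at the far right reaches 9 with a narrow anchor.

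VIP interactions of the region bridged long distances. Their median distance between anchor midpoints was 371 kb (order-statistic interval 292 to 461), against 165 kb (156 to 175) in the rest of the VIP list. The SST interactions of the region had a median of 195 kb (43.0 to 536, n = 9), against 178 kb in the rest of the SST list. The longest contact of the whole VIP list lay here, 995 kb from 15.92 to 16.93 Mb. Contacts above 900 kb numbered 7 of 65 (10.8%, 4.44 to 20.9%), against 1.30% (1.05 to 1.61%) in the rest of the VIP list. Those of 600 to 1000 kb made up 21.5% (12.3 to 33.5%) against 8.29%, and those of 400 to 600 kb 23.1% (13.5 to 35.2%) against 12.6%. Contacts of up to 50 kb made up 12.3% (5.47 to 22.8%), against 24.1% in the rest of the list. The intervals take interactions as independent, which those that share an anchor are not, and 5 anchors took part in 56 of the 65. The distances belong to 1 region picked for many VIP interactions, so they are a description. No VIP contact in the list exceeded 995 kb, so a direct link between the outermost anchors, at 15.92 and 17.53 Mb, lay beyond the range of the list.

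The link rate between VIP anchors was higher in the region than elsewhere at long distances and not at short ones. Of 231 pairs of VIP anchors in the region, 214 lay within 1 Mb of each other, and 64 of these were linked (29.9%, 23.9 to 36.5%); over all VIP anchor pairs within 1 Mb, 22.1% were linked. Up to 50 kb, 8 of 17 pairs were linked (47.1%, 23.0 to 72.2%), against 47.8% in the rest of the list. From 50 to 100 kb the share was 23.8% (8.22 to 47.2%) against 33.5%, and from 100 to 200 kb it was 23.3% (9.93 to 42.3%) against 21.0%. From 200 to 400 kb, 16 of 55 pairs were linked (29.1%, 17.6 to 42.9%) against 24.9%. In these classes the value for the rest of the list lay inside the region's interval. From 400 to 600 kb, 15 of 42 pairs were linked (35.7%, 21.6 to 52.0%) against 17.5%, and from 600 to 1000 kb, 13 of 49 (26.5%, 14.9 to 41.1%) against 7.17%. In the rest of chromosome 8 the last value was 3.70% (2.38 to 5.45%). The intervals take pairs as independent, which pairs that share an anchor are not, and a region picked for many VIP interactions can have a high link rate by that choice.

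**Figure D4:**
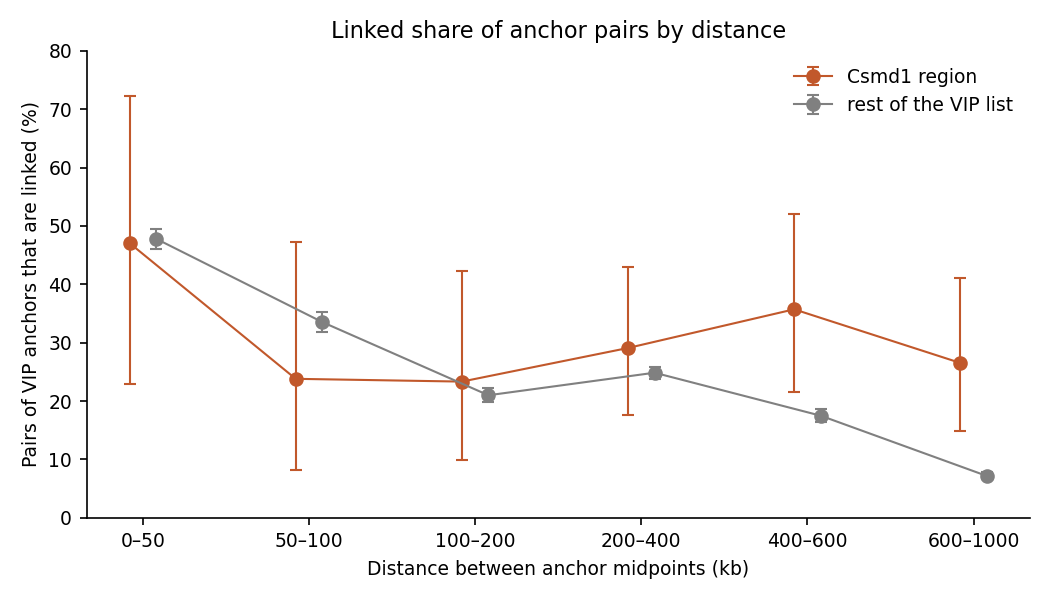
Points give the percentage of pairs of VIP anchors that were linked (y axis) by distance between midpoints in kb (x axis), for the Csmd1 region and the rest of the VIP list; bars are exact 95% binomial intervals for counting error. The intervals overlap up to 400 kb, and above it the region stands at 35.7 and 26.5% against 17.5 and 7.17%.

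Long links were not limited to this locus. For pairs above 400 kb, 28 of 91 were linked in the region (30.8%, 21.5 to 41.3%). Among 114 other windows of the same length with 20 or more such pairs, the median was 8.40%, and 13 reached the value of the region or more, up to 64%. Among the 19 of these that were at least 5-fold higher in VIP, the median was 19.0%, and 4 reached it. Without the 16.53 Mb anchor the region stood at 29.0% of 69 pairs. Merging anchors within 5 kb gave 36.1% of 61 pairs in the region and 14.8% over all VIP pairs above 400 kb, which stood at 11.3% (10.7 to 11.8%) before merging.

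Several of the well-connected VIP anchors were fully interlinked. All 65 VIP interactions formed a single connected set of 23 anchors, the region's 22 and 1 outside it. Within it, 7 anchors at 16.53, 16.60, 16.93, 16.95, 17.00, 17.09 and 17.53 Mb had each of their 21 possible links listed. The same held when the anchor at 16.93 Mb was replaced by that at 16.98 Mb. The anchors at 16.93 and 16.98 Mb were not linked to each other, although both had links to 17.53 Mb. The anchors at 16.93, 16.95, 16.98 and 17.00 Mb form 1 run, from 16927499 to 17023733, with gaps under 5 kb between neighbours. Merging anchors within 5 kb makes this run 1 stretch, so the size of these groups depends on how anchors were divided. It was not counted after merging. Of all linked triples of VIP anchors, 52.7% were closed by the third link, against 39.8% over the VIP list. A region picked for many VIP interactions can have a high closed share by that choice, so the value is a description. Such groups were common in VIP-rich loci: among the 10 windows of 1 Mb with the largest excess of VIP over SST, the largest fully linked group held 7 or 8 anchors in 7 of the other 9 windows. In those 9 between 25.8 and 65.9% of triples were closed, while the window from 16 to 17 Mb on chromosome 8 alone, which cuts the region, had a largest group of 5 anchors and 45.6%. In SST the largest such groups held 3 anchors, and each of the 3 groups contained the anchor at 16.94 Mb.

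A second group sat at the lower end. The anchors at 15.92, 16.00 and 16.05 Mb were linked to one another and to 16.53 and 16.60 Mb across a stretch of 251 kb (16069656 to 16320783) without a VIP anchor. The 15.92 Mb anchor took up 9 of its 14 possible partners in the region (64.3%). Between the 17.09 and 17.53 Mb anchors lay the widest stretch without a VIP anchor, 395 kb from 17131776 to 17527073, and 9 VIP interactions crossed it. All of these ended at the 17.53 Mb anchor. In SST the corresponding stretch was 367 kb, from 17160231 to 17527073, and 4 interactions crossed it to the same end.

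The contact at 17.53 Mb was common to both cell types, with a wider set of partners in VIP. The SST and VIP anchors there started at the same base, 17527073, and ended at 17539755 and 17537692. In SST the anchor had 4 of its 6 possible partners, with a median distance of 516 kb. In VIP it had 9 of 16, with a median of 595 kb, at 16.53, 16.60, 16.72, 16.84, 16.93, 16.95, 16.98, 17.00 and 17.09 Mb. The VIP links to 16.93, 16.95, 16.98 and 17.00 Mb had SST counterparts. The VIP links to 16.53, 16.60, 16.72, 16.84 and 17.09 Mb went to stretches with no SST anchor.

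Some contacts of the region were listed in both cell types. With 65 VIP and 9 SST interactions, a small shared part of VIP and a larger one of SST follow from how the region was picked, so the shares are a description. A shared interaction is one whose anchors both overlap, by 1 bp or more, those of a single interaction in the other list. By this rule 5 of 9 SST interactions were shared (55.6%, 21.2 to 86.3%), leaving 4 without a counterpart, where 78.6% of the SST list had none. Of the VIP interactions, 8 of 65 were shared (12.3%, 5.47 to 22.8%), leaving 57 without a counterpart, where 74.2% of the VIP list had none. Of the 7 SST anchors, 5 overlapped a VIP anchor and 2 did not, where 63.1% of the anchors in the SST list did not. The numbers of shared interactions differ because the lists divide the same chromatin differently: the SST anchor at 16.94 Mb overlapped VIP anchors at 16.93 and 16.95 Mb, and that at 16.99 Mb overlapped VIP anchors at 16.98 and 17.00 Mb. All 8 shared VIP interactions lay among the 17 with both anchors within the SST stretch. None of the 23 with 1 anchor there, or of the 25 with neither, was shared.

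Of the 4 SST interactions without a counterpart, 3 had an end at 17.05 or 17.14 Mb, stretches without a VIP anchor, and the fourth joined 17.03 to 17.53 Mb. The SST anchor at 17.14 Mb started 8.16 kb above the end of the VIP anchor at 17.09 Mb. When anchors within 10 kb of each other were allowed to match, each of the 9 SST interactions and 14 of the 65 VIP interactions (21.5%) had a counterpart. Whether the SST list has a contact of its own here therefore depends on the tolerance. For the SST link from 17.03 to 17.53 Mb, the counterpart at 10 kb is the VIP link from 17.00 to 17.53 Mb. That VIP anchor ends at 17023733, while the VIP anchor identical to the SST one at 17.03 Mb has no listed link to 17.53 Mb.

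The anchor at 17.03 Mb (17032075 to 17043209) was identical in both lists and had 1 interaction in each. In SST it was linked to 17.53 Mb over 496 kb, and in VIP to 16.95 Mb over 73.7 kb. It was the only anchor of the region with the same start and end in both lists. Among anchors present in both lists, 10 of 15 VIP pairs and 6 of 10 SST pairs were linked. Of those links, 8 of the 10 VIP and 5 of the 6 SST ones were shared.

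Among VIP interactions without a counterpart, the shares by presence of anchors in the SST list had intervals that held the whole VIP list's values. This leaves out the 8 shared interactions, which have both anchors in the SST list. They made up 12.3% (5.47 to 22.8%) of the region's VIP interactions, where 25.8% of the VIP list was shared. Of the 22 VIP anchors, 16 did not overlap an SST anchor (56.5% of all VIP anchors did not), and 6 did (27.3%, 10.7 to 50.2%). Of the 57 VIP interactions without a counterpart, 30 had neither anchor in the SST list (52.6%, 39.0 to 66.0%), 25 had 1 and 2 had both. Over the VIP list these shares were 45.8, 42.5 and 11.8%, and the region's shares were 43.9% for 1 anchor and 3.51% (0.428 to 12.1%) for both, with the list's value inside the interval in each case. A region picked for few SST interactions also has few SST anchors by that choice. An anchor enters a list only through a called contact, so a stretch without an SST anchor may still carry H3K27ac in SST nuclei.

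The pattern changed below the region and ended above it. In the adjoining window of 1.85 Mb on the lower side the order was turned around, with 48 SST and 4 VIP interactions, or 5.80 against 0.594 per 1000. A single VIP interaction joined this side to the Csmd1 region, from the anchor at 14973810 to 15020318 to that at 15.92 Mb. None of the 48 SST interactions reached into the region. The nearest SST anchor outside it, at 15379285 to 15397435, had 1 interaction and lay 403 kb below the lower end. The nearest VIP anchor outside, at 15024798 to 15030489, lay 770 kb below it. On the higher side neither list had an interaction within 2 Mb, and the next anchors, at 24082124 to 24091500 in SST and 24082951 to 24089300 in VIP, lay 6432 and 6433 kb beyond the upper end.

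**Figure D5:**
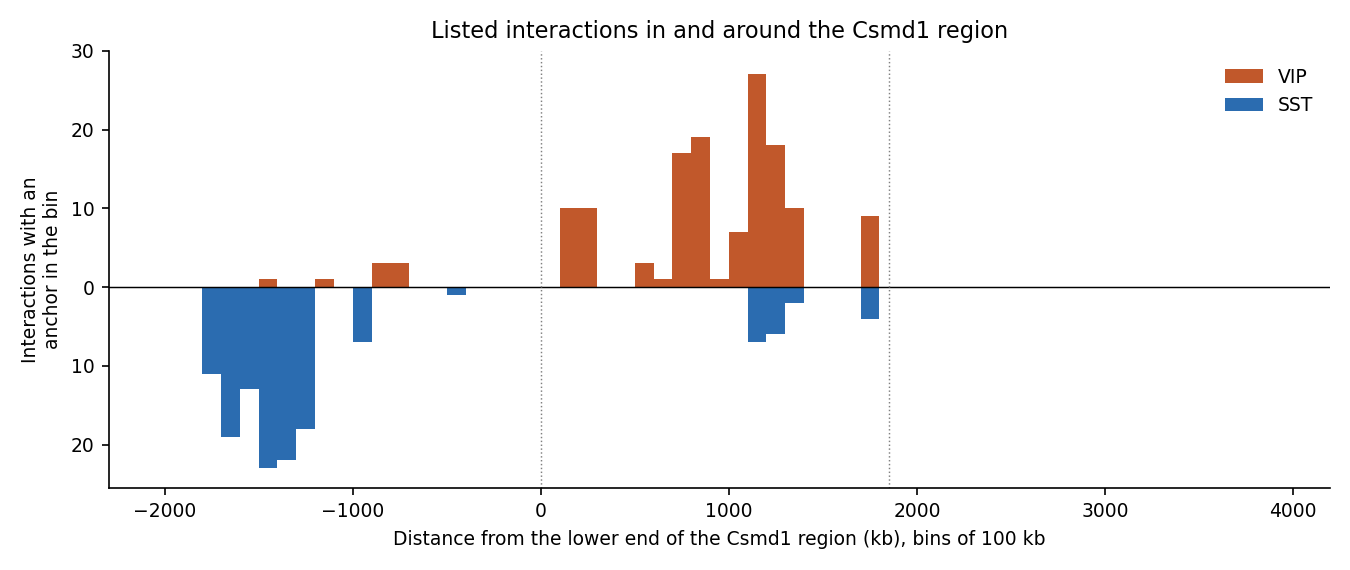
Bars count interactions with an anchor in each bin of 100 kb, VIP upward and SST downward (y axis), by distance in kb from the lower end of the Csmd1 region (x axis); dotted lines mark its ends. SST interactions fill the bins from 1800 to 1200 kb below the region, VIP interactions fill 12 bins inside it, and no bin above it is filled.

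Among those 10 windows of 1 Mb rich in VIP, the one from 16 to 17 Mb on chromosome 8 was closest in the reach of its contacts to a window of chromosome 7 (38 to 39 Mb) and a window of chromosome 4 (75 to 76 Mb), a pair chosen after their values were seen. Interactions above 400 kb made up 41.3% of its 46 VIP interactions, 47.8% of 46 in the chromosome 7 window and 43.1% of 65 in the chromosome 4 window. In the other 7 windows they made up between 6.49% (chromosome 17, 25 to 26 Mb) and 31.6% (chromosome 7, 118 to 119 Mb). Linked pairs of anchors made up 31.5% (24.1 to 39.7%) in the Csmd1 window, 38.3% (29.6 to 47.6%) and 31.3% (25.0 to 38.0%) in these 2, intervals that overlap. The Csmd1 window had 3 VIP interactions with an SST counterpart, where both of the others had 0. These windows were picked by the same contrast, so the values are a description.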

How the data were processed

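Members and settings were chosen with earlier results of these data known. The deposited files, 1 per cell type, give in 6 columns without a header the chromosome, start and end of both anchors of each interaction, as other values in bp, with no read count, score or p-value. HiC-Pro and the mm9 build are named, per the submitters' processing notes; the interaction caller, its threshold and any pooling of replicates are steps not given in the sources used here. Sequencing depth is unknown, so list length cannot be told apart from depth. Coordinates are printed as deposited, and a start may differ by 1 bp.

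Anchors overlapped when they shared at least 1 bp. Distances are between midpoints. Windows of the region's length were laid from the region along chromosome 8 and from the first base of other chromosomes, and counted when an interaction had an anchor in them. Intervals are 95% exact binomial or Poisson, or order-statistic for medians, and cover counting error only. Named were the 5 VIP anchors with the most interactions, each SST interaction, the longest VIP interaction and VIP anchors overlapping SST anchors; other anchors were named after their values were seen. The overlap and pair steps were tested on simulated lists. Promoter and gene family comparisons were not run without an mm9 annotation, and no sequence is printed. Tools were networkx 3.6.1, matplotlib 3.10.9, scipy 1.17.1, numpy 2.4.6, pandas 2.3.3 and Python 3.11.15.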

Additional observations from a re-analysis of the deposited data

How the results depend on the processing

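The VIP to SST ratio per 1000 stayed above 1 in each setting tried, which the choice of the region favours. It lay between 4.83 (interactions up to 200 kb, 20 VIP and 5 SST) and 15.1 (without the most connected anchor of each list, 49 VIP and 4 SST). The counts fall there by construction. Merging anchors within 5 kb left 45 VIP and 7 SST interactions, a ratio of 7.86. The most interactions at a VIP anchor then went from 16 to 13, so these counts depend on how anchors were divided. Requiring identical anchors left 0% of VIP and 0% of SST interactions shared, and anchors within 10 kb gave 100% of SST. At 10-fold, 24 windows in place of 38 were higher in VIP, fewer by construction. The median distance and the linked shares of pairs in the region stayed inside their intervals in the settings tried, while the linked share of all VIP pairs above 400 kb went from 11.3% to 14.8% with anchors merged. Removal of the most connected anchor for pairs above 400 kb was chosen after seeing the data. No paired analysis was possible because values per replicate are not part of the 2 lists, which also meant that leaving out a replicate was not an option. Only 1 anchor of the region had identical coordinates in both lists, so no interaction could match at both ends under the identical rule. The 10 kb tolerance can only add matches, and why anchors of the 2 lists lay that close was not tested.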
